A study of Triticum aestivum with 18 samples.

Results

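The 109 loci described here were those whose deposited description named gibberellin, an ent-kaurene, ent-kaurenoic or ent-copalyl enzyme, a DELLA, Rht or GID1 protein or GAMYB, among 94141 loci in the table of wheat (Triticum aestivum) seeds during germination. By role they comprised 12 copalyl diphosphate synthases (CPS), 14 kaurene synthases (KS), 4 kaurene oxidases (KO), 9 kaurenoic acid oxidases (KAO), 8 GA20 oxidases, 11 GA3 oxidases, 9 GA2 oxidases, 20 receptor loci, 3 DELLA loci, 12 loci named GAMYB or GAMYB-binding, 3 gibberellin-responsive GRAS loci and 4 others. A total of 47 loci reached 1 FPKM (fragments divided by transcript length and by library size) in at least 3 libraries and were among the 50656 loci tested. Of the 62 loci not tested, 11 were listed at 0 in all 18 libraries, and 56 of the 109 loci stayed below 1 FPKM in every library.

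Libraries were made from seeds of BN607 (Bainong607), BN207 (Bainong207) and ZM22 (Zhoumai22), with 3 libraries for each variety and treatment. Groups W72_BN607, W72_BN207 and W72_ZM22 held seeds waterlogged for 72 h and then germinated for 72 h. Groups C72_BN607, C72_BN207 and C72_ZM22 held control seeds germinated for 72 h without waterlogging, which the sample descriptions say had taken up water for 24 h first. Time since first wetting thus also differed between the treatments and cannot be told apart from waterlogging. The sample descriptions give beakers under 10 cm of water, and the study's methods give covered Petri dishes in the dark. RNA came from grains whose radicle and coleoptile had been taken off, so endosperm, aleurone and the rest of the embryo were measured as a mixture. In such a mixture, fewer cells of a type and less RNA per cell cannot be told apart.

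Positions are those of IWGSC RefSeq v1.0, and names starting with MSTRG are loci assembled by StringTie. Wheat carries A, B and D copies of most genes, whose sequences are alike, so reads may have been split between them and levels of single copies are uncertain to that extent.

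Gibberellins are diterpenoid hormones made from geranylgeranyl diphosphate, which CPS and KS close into ent-kaurene and KO and KAO oxidise to the first gibberellin. GA20 oxidases and GA3 oxidases then produce the bioactive forms, and GA2 oxidases inactivate them. In cereal grains, bioactive gibberellin from the embryo binds the GID1 receptor, which leads to the degradation of DELLA repressors, and the aleurone then makes GAMYB and, through it, the alpha-amylases that digest the starchy endosperm.

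Summed counts ran between 68.8 M and 107.7 M per library, with a median of 97.7 M, and W72_ZM22 replicate 1 was the shallowest. The labels do not say whether the 3 libraries of a group came from separate batches of seed, so p-values measure the spread between these libraries, which may be technical in part. The library labelled W72_BN207 replicate 1 went against its label: it lacked all 165 loci that marked BN207 against BN607 and carried all 171 loci that marked BN607 against BN207, whereas each of the other 17 libraries held at least 86.5% of the loci of its own variety and at most 2.27% of the other's. BN207 values include it unless stated, and the fits were repeated without it. Replicates of a group differed in tissue markers, since the summed level of gliadin and glutenin loci, which mark the starchy endosperm, was 500 FPKM in C72_ZM22 replicate 1 and 0.435 to 132 FPKM in the other 17 libraries. The median log2(FPKM + 1) of 308 histone, cyclin and replication loci, which mark dividing cells, ran between 1.13 and 5.27. Alpha-amylase transcripts, taken as an aleurone marker although the mixture does not place them in a tissue, reached a summed 1645 to 42102 FPKM in each library. Markers of green tissue reached 2.09 to 61.6 FPKM.

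**Figure D1:**
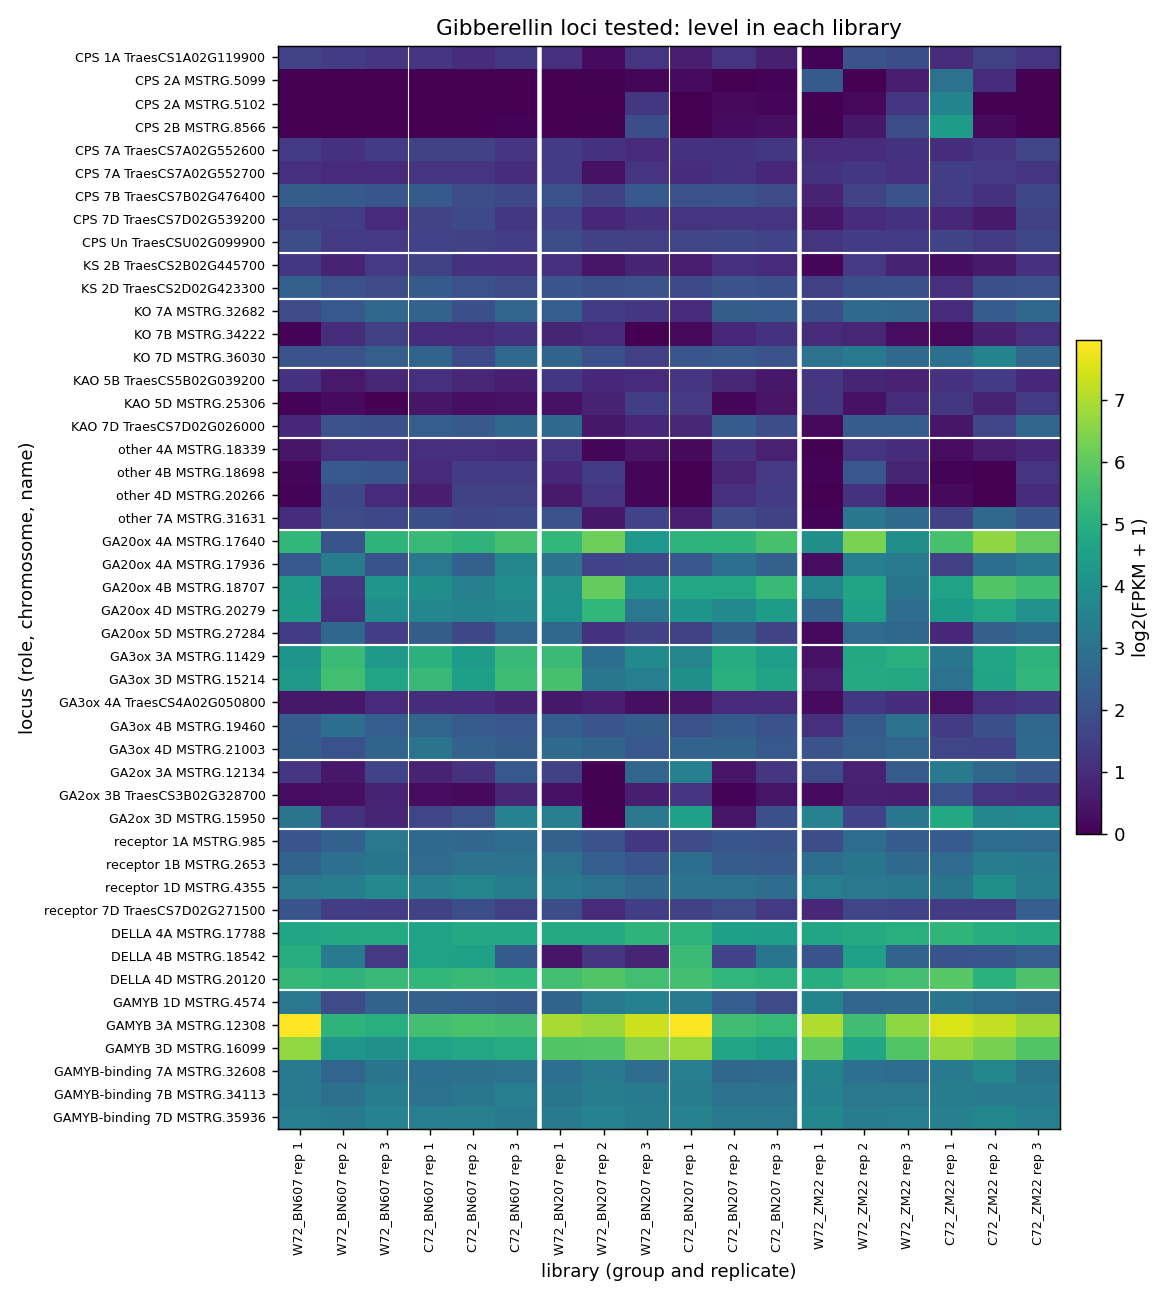
Level of the 47 tested gibberellin loci (rows, grouped by role and named with chromosome and locus) in the 18 libraries (columns, grouped by variety and treatment), as log2(FPKM + 1) in colour. GAMYB on 3A and 3D, the 3 DELLA loci, GA20 oxidase 1 and GA3 oxidase 2 carried the highest levels, and the replicates of a group often differed more than the groups did.

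Across the pathway, the late enzymes and the signalling loci were the abundant transcripts. GAMYB on chromosome 3A (MSTRG.12308) averaged 105 FPKM over the 18 libraries and its partner on 3D (MSTRG.16099) 52.7 FPKM. GA20 oxidase 1 on 4A (MSTRG.17640) averaged 42.6 FPKM, RHT-D1 on 4D (MSTRG.20120) 42.0 FPKM and GA3 oxidase 2 on 3D (MSTRG.15214) 25.5 FPKM. The early enzymes were scarce, as the highest mean was 2.67 FPKM for CPS, 2.85 FPKM for KS, 4.84 FPKM for KO and 2.76 FPKM for KAO. The coefficient of variation over the 18 libraries had a median of 54.5% for the tested gibberellin loci and 47.7% for all tested loci. The lowest variation belonged to a GAMYB-binding protein on 7D (MSTRG.35936, 11.3%), and the highest to the CPS loci MSTRG.5102 on 2A (326%) and MSTRG.8566 on 2B (318%).

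To ask whether waterlogging changed the pathway, the waterlogged and control libraries of each variety were compared with the edgeR quasi-likelihood test, with Benjamini-Hochberg adjustment over 50656 loci. No gibberellin locus passed an adjusted p of 0.05 in BN607, BN207 or ZM22, where 0%, 0% and 0.00592% of all loci did, or on average over the varieties, where 0.00197% did. At an unadjusted p below 0.05 there were 0, 1 and 1 gibberellin loci in BN607, BN207 and ZM22, against 2.12%, 1.89% and 1.09% of all loci, and 0 on average over the varieties, against 2.72%. DESeq2, which gave an adjusted p for 45 of the 47 loci, called 0, 1 and 0 gibberellin loci in BN607, BN207 and ZM22, against 0.0675%, 0.544% and 0.286% of all loci. On average over the varieties it called 0, against 0.433% of all loci, and limma on log2(FPKM + 1) called 0 gibberellin loci and 0% of all loci in each of these comparisons. Median log2 fold changes of the gibberellin loci were 0.04 in BN607, 0.10 in BN207 and -0.35 in ZM22, against 0.10, -0.05 and -0.02 for all tested loci. In ZM22, 33 of the 47 loci lay below 0 and 14 above, and in BN207 16 lay below and 31 above. Without the library labelled W72_BN207 replicate 1 the BN207 split turned round, with 26 loci below 0 and 21 above and a median of -0.13, against -0.08 for all tested loci. Medians were also taken for tissue markers. The 17 tested gliadin and glutenin loci, of 91 listed, had medians of -0.48 in BN607, -3.96 in BN207 and -7.87 in ZM22, and the 308 dividing-cell loci 0.18, -1.22 and 0.64. None of either list was called in edgeR, while 1, 9 and 14 gliadin and glutenin loci and 3, 1 and 0 dividing-cell loci had an unadjusted p below 0.05 in BN607, BN207 and ZM22. The median log2(FPKM + 1) of the 17 gliadin and glutenin loci was 3.97 in C72_ZM22 replicate 1 and 2.36 and 1.16 in C72_BN207 replicates 1 and 3. In every other library it was at most 0.371. Their median thus reached 1 FPKM in controls alone, so their fall under waterlogging is not independent of the filter. The 42 embryo and dry seed loci had medians of 0.21, 3.10 and -0.22 in BN607, BN207 and ZM22. The 9 green tissue loci had 0.50, -1.66 and -0.36 and the 2 root loci 0.39, -0.05 and 0.04. In W72_BN207 the median log2(FPKM + 1) of the embryo and dry seed loci was 0.728, 6.31 and 0.835, against 2.24, 0.885 and 1.53 in C72_BN207. Replicate 2 alone thus lay above the controls, and replicates 1 and 3 lay below them. Without the library labelled W72_BN207 replicate 1 the BN207 medians were -4.12 for gliadin and glutenin loci (2 at an unadjusted p below 0.05), -1.70 for dividing-cell loci, 3.66 for embryo and dry seed loci, -3.69 for green tissue loci and 0.06 for root loci. The part of tissue make-up in the gibberellin results was not tested.

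Groups that did not overlap were few. In BN607, 2 of the 47 loci had the 3 waterlogged libraries wholly apart from the 3 controls, KAO on 5D (MSTRG.25306) and KAO on 7D (TraesCS7D02G026000), against 9.44% of all loci. In BN207 it was 1 locus, the DELLA locus on 4B, against 3.62% of all loci, and in ZM22 2 loci, GA2 oxidase on 3D (MSTRG.15950) and on 3B (TraesCS3B02G328700), against 3.4% of all loci. All 5 had lower FPKM in the waterlogged libraries, but GA2 oxidase on 3B passed the filter of 1 FPKM in 3 libraries mainly through the ZM22 controls. On the CPM scale (counts scaled for library size by TMM, not for length) the groups were apart at 3, 1 and 3 loci in BN607, BN207 and ZM22, against 10.6%, 3.53% and 3.94% of all loci, and of these 1 in BN607 was higher in the waterlogged libraries. With the library labelled W72_BN207 replicate 1 left out, 7 of the 47 loci were apart in BN207, a share near the 14.4% of all loci. Being apart there thus did not set a gibberellin locus off from other loci. Lower under waterlogging were the DELLA locus on 4B, GA3 oxidase 2 on 3D, GA20 oxidase 1-A on 4A, KO on 7D and 2 CPS loci (TraesCS7D02G539200 and TraesCSU02G099900), and GAMYB on 1D was higher. The response to waterlogging also did not differ between varieties for any gibberellin locus at an adjusted p of 0.05 (edgeR), with 0.00395% of all loci called for BN607 against ZM22, 0.00395% for BN207 against ZM22 and 0% for BN607 against BN207. At an unadjusted p below 0.05 there were 0, 1 and 1 gibberellin loci in these 3 comparisons, both times the DELLA locus on 4B, against 1.37%, 1.49% and 1.36% of all loci. DESeq2 called 0 in each, against 0.216%, 0.461% and 0.324% of all loci, and limma 0 in each, against 0% of all loci.

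**Figure D2:**
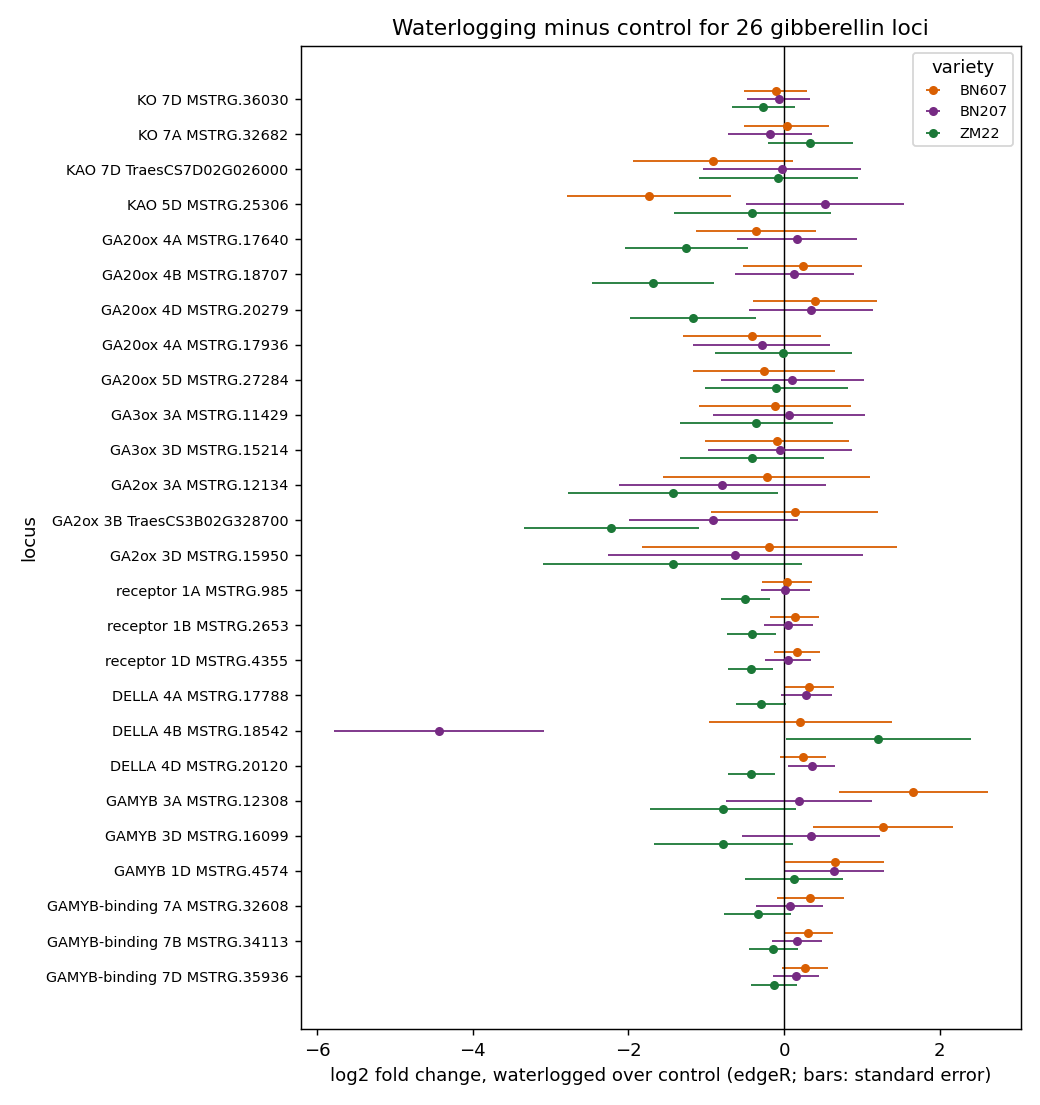
Log2 fold change of waterlogged over control libraries (edgeR, n = 3 per group, bars show the standard error) for 26 gibberellin loci in BN607, BN207 and ZM22. Estimates lay on both sides of 0 with wide bars, the DELLA locus on 4B in BN207 was the lowest of those plotted at -4.43, and none passed the adjusted threshold in edgeR.

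Bioactive gibberellin depends on GA20 oxidases, which carry out the successive oxidations that remove carbon 20. GA20 oxidase 1 on 4A (MSTRG.17640, 543331966 to 543333681) had 37.4, 3.16 and 35.5 FPKM in the W72_BN607 libraries, against 39.8, 35.0 and 47.5 FPKM in the C72_BN607 libraries. It had 37.3, 73.3 and 17.8 FPKM in the W72_BN207 libraries, against 34.5, 34.9 and 49.1 FPKM in the C72_BN207 libraries. ZM22 libraries had 14.3, 80.8 and 14.4 FPKM under waterlogging, against 48.5, 98.3 and 64.5 FPKM under control. W72_BN607 replicate 2 stood far below the other BN607 libraries, and the groups overlapped in every variety.

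The copies on 4B (MSTRG.18707) and 4D (MSTRG.20279) went with it. On 4B the levels in ZM22 were 11.5, 24.1 and 7.63 FPKM under waterlogging, against 22.9, 54.1 and 44.3 FPKM under control, a log2 fold change of -1.68 ± 0.78 (SE, n = 3 each; edgeR adjusted p = 1). It was the gibberellin locus with the lowest p in ZM22, and W72_ZM22 replicate 2 lay just above the lowest control. In W72_BN607 replicate 2 the 4B and 4D copies were at 1.39 and 1.16 FPKM, while the other 5 BN607 libraries held 10.0 to 18.3 FPKM of the 4B copy and 10.7 to 19.8 FPKM of the 4D copy. The 4A copy supplied 41.3 to 64.6% of the summed FPKM of the 3 copies, the 4B copy 18.0 to 38.1% and the 4D copy 12.3 to 26.2%.

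The other GA20 oxidase pair, 1-A on 4A (MSTRG.17936) and 1-D on 5D (MSTRG.27284), was weaker and had another low library. Oxidase 1-A had 0.195, 9.82 and 8.98 FPKM in the W72_ZM22 libraries, against 1.85, 6.27 and 9.02 FPKM in the C72_ZM22 libraries. Replicate 1 was the lowest of its group under both treatments, and the groups overlapped. In BN607 it had 3.56, 9.12 and 3.15 FPKM under waterlogging, against 7.85, 4.46 and 11.7 FPKM under control.

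GA3 oxidases add the hydroxyl group that makes gibberellin active. GA3 oxidase 2 on 3D (MSTRG.15214, 82411790 to 82413750) had 18.7, 45.9 and 25.5 FPKM in the W72_BN607 libraries, against 40.9, 21.7 and 44.1 FPKM in the C72_BN607 libraries. It had 49.0, 7.74 and 9.83 FPKM in the W72_BN207 libraries, against 14.8, 32.1 and 23.9 FPKM in the C72_BN207 libraries, and the value of 49.0 came from the library that went against its label. ZM22 libraries had 0.561, 28.4 and 27.5 FPKM under waterlogging, against 6.75, 24.1 and 37.1 FPKM under control. The lowest library of all was again W72_ZM22 replicate 1, and waterlogged and control libraries interleaved in BN607 and ZM22. In BN207 they overlapped through the value of 49.0 alone, since the other 2 waterlogged libraries lay below the 3 controls, and without that library the log2 fold change was -1.22 (edgeR adjusted p = 0.988). The 3A copy (MSTRG.11429) ran between 0.305 and 42.2 FPKM, with its lowest and highest values in the same libraries as the 3D copy. GA3 oxidase 4 was far weaker, with 1.16 to 6.95 FPKM on 4B (MSTRG.19460), 2.07 to 7.38 FPKM on 4D (MSTRG.21003) and 0.181 to 1.47 FPKM on 4A (TraesCS4A02G050800). In BN207 the 4A copy had a log2 fold change of -0.76 ± 0.65 (SE, n = 3 each; edgeR adjusted p = 1).

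GA2 oxidases lower the pool of active gibberellin. GA2 oxidase 3 on 3D (MSTRG.15950, 404439874 to 404442350) had 10.5, 2.06 and 7.70 FPKM in the W72_ZM22 libraries, against 27.7, 11.9 and 12.8 FPKM in the C72_ZM22 libraries. The 3B copy (TraesCS3B02G328700) had 0.175, 0.623 and 0.586 FPKM under waterlogging, against 2.98, 1.32 and 1.18 FPKM under control. On 3A (MSTRG.12134) the levels were 2.49, 0.660 and 3.95 FPKM under waterlogging, against 8.99, 5.25 and 3.63 FPKM under control. The 3D and 3B copies were thus lower in each waterlogged ZM22 library than in any ZM22 control, and the 3A copy overlapped. The 3B copy reached 1 FPKM in 3 ZM22 libraries, all controls, in 1 BN207 library and in 0 BN607 libraries. It passed the filter on low values mainly through the ZM22 controls, so its separation and fold change in ZM22 are not independent of the filter. The log2 fold change in ZM22 was -2.22 ± 1.12 on 3B, -1.43 ± 1.67 on 3D and -1.43 ± 1.35 on 3A (SE, n = 3 each; edgeR adjusted p = 1 for all 3).

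In the other varieties GA2 oxidase 3 on 3D spread without order. It had 7.41, 1.21 and 0.785 FPKM in the W72_BN607 libraries, against 2.19, 2.94 and 10.5 FPKM in the C72_BN607 libraries. It had 9.93, 0 and 8.00 FPKM in the W72_BN207 libraries, against 22.3, 0.376 and 2.85 FPKM in the C72_BN207 libraries. Within C72_BN207 the highest library exceeded the lowest by more than the waterlogged and control means differed in any variety.

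The GID1 receptor loci on 1A, 1B and 1D had coefficients of variation of 37.2%, 27.4% and 26.4%, below the median of the tested gibberellin loci. GID1 on 1D (MSTRG.4355, 346662257 to 346665367) had 7.91, 9.44 and 12.5 FPKM in the W72_BN607 libraries, against 10.0, 11.4 and 9.13 FPKM in the C72_BN607 libraries. In BN207 it had 8.43, 6.75 and 5.26 FPKM under waterlogging, against 7.23, 6.81 and 6.21 FPKM under control. Levels in ZM22 were 9.66, 8.06 and 7.79 FPKM under waterlogging, against 7.63, 14.7 and 9.23 FPKM under control. The groups overlapped in the 3 varieties, and the log2 fold changes were 0.17 ± 0.29, 0.05 ± 0.29 and -0.43 ± 0.29 in BN607, BN207 and ZM22 (SE, n = 3 each; edgeR adjusted p = 1).

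The copies on 1B (MSTRG.2653) and 1A (MSTRG.985) ran between 3.33 and 9.46 FPKM and between 1.45 and 7.83 FPKM. The 1D copy supplied 37.2 to 52.4% of the summed FPKM of the 3, the 1B copy 27.3 to 39.5% and the 1A copy 14.4 to 28.1%. Loci described as GID1-like added little: the 12 GID1L3 loci reached at most 1.40 FPKM, the 2 GID1L1 loci 0.0293 FPKM and the 3 GID1L2 loci 4.21 FPKM, the last on 7D (TraesCS7D02G271500).

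DELLA proteins repress gibberellin responses until the receptor removes them, and in wheat the Rht loci of chromosome group 4 encode them. Rht-A1 on 4A (MSTRG.17788, 582477161 to 582480012) had 25.2, 26.7 and 28.1 FPKM in the W72_BN607 libraries, against 23.4, 26.7 and 25.9 FPKM in the C72_BN607 libraries. In BN207 it had 28.2, 28.5 and 34.9 FPKM under waterlogging, against 34.6, 21.6 and 21.1 FPKM under control. In ZM22 it had 24.6, 28.4 and 31.5 FPKM under waterlogging, against 35.8, 29.9 and 28.2 FPKM under control. Its coefficient of variation over the 18 libraries was 15.2%, among the lowest of the set.

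RHT-D1 on 4D (MSTRG.20120, 18781062 to 18783381) was similar, with a coefficient of variation of 18.1%. It had 38.3, 35.6 and 41.3 FPKM in the W72_BN607 libraries, against 37.9, 40.1 and 37.7 FPKM in the C72_BN607 libraries. In BN207 it had 45.5, 54.4 and 46.0 FPKM under waterlogging, against 46.8, 37.1 and 33.8 FPKM under control. ZM22 libraries had 30.3, 41.7 and 45.6 FPKM under waterlogging, against 58.0, 33.1 and 52.4 FPKM under control. Waterlogged and control libraries overlapped in every variety, and the log2 fold change in BN207 was 0.35 ± 0.30 (SE, n = 3 each; edgeR adjusted p = 1).

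The DELLA locus on 4B (MSTRG.18542, 30859148 to 30863758) behaved unlike the other 2. As assembled it spanned 4611 bp, against 2852 bp on 4A and 2320 bp on 4D. Whether all its reads came from the Rht gene was not tested. The 4B locus had 30.3, 8.55 and 1.49 FPKM in the W72_BN607 libraries, against 22.9, 22.7 and 3.79 FPKM in the C72_BN607 libraries. It had 0.408, 1.38 and 0.788 FPKM in the W72_BN207 libraries, against 42.4, 2.02 and 7.62 FPKM in the C72_BN207 libraries. In ZM22 it had 3.16, 22.4 and 4.74 FPKM under waterlogging, against 3.15, 3.39 and 4.25 FPKM under control. In W72_BN607, C72_BN607, C72_BN207 and W72_ZM22 the highest library held 22.4 FPKM or more while another replicate of the same group held 3.79 FPKM or less. The 4B share of the summed DELLA level ran between 0.551 and 34.2%, and its coefficient of variation was 119%.

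In BN207 the 3 waterlogged libraries lay below the 3 controls, with a log2 fold change of -4.43 ± 1.35 (SE, n = 3 each; edgeR adjusted p = 1). DESeq2 called the locus at an adjusted p of 0.0134, and edgeR and limma gave adjusted p values between 0.722 and 1 in the other settings. The size of the change rested on C72_BN207 replicate 1, since without that library the edgeR log2 fold change was -2.23 (edgeR adjusted p = 0.722), and DESeq2 was not run without it. Without the library labelled W72_BN207 replicate 1 it was -4.07 (edgeR adjusted p = 0.988). Compared with the response in ZM22, that in BN207 differed by -5.65 ± 1.77 on the log2 scale (SE; edgeR adjusted p = 1).

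**Figure D3:**
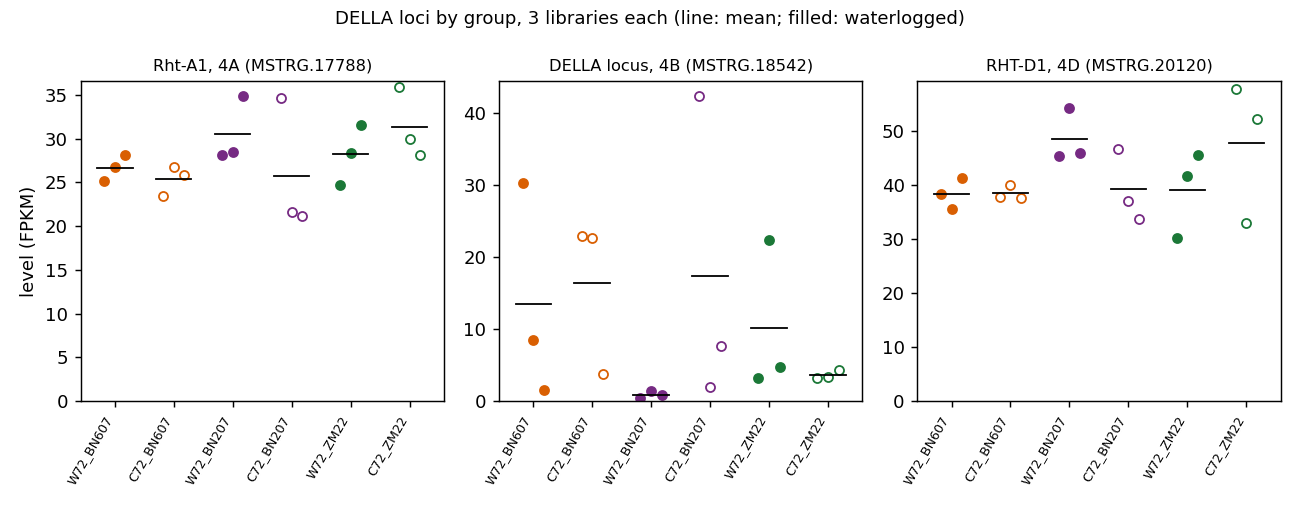
Level in FPKM (vertical axes from 0) of the 3 DELLA loci in each library, by group, with filled points for waterlogged libraries, open points for controls and lines for the mean of 3. Rht-A1 and RHT-D1 kept within 21.1 to 35.8 FPKM and 30.3 to 58.0 FPKM, whereas the 4B locus ran between 0.408 and 42.4 FPKM within and across groups.

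GAMYB, a MYB factor that activates alpha-amylase promoters in the aleurone, was the most abundant transcript of the set. On 3A (MSTRG.12308, 583240036 to 583246062) it had 248, 35.4 and 31.3 FPKM in the W72_BN607 libraries, against 46.4, 50.1 and 47.6 FPKM in the C72_BN607 libraries. It had 119, 105 and 163 FPKM in the W72_BN207 libraries, against 242, 44.6 and 39.4 FPKM in the C72_BN207 libraries. In ZM22 it had 129, 45.1 and 96.0 FPKM under waterlogging, against 181, 148 and 112 FPKM under control. High and low libraries occurred within W72_BN607 and within C72_BN207, and the groups overlapped in all 3 varieties.

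The log2 fold change in BN607 was 1.66 ± 0.96 on 3A and 1.27 ± 0.90 on 3D (MSTRG.16099; SE, n = 3 each; edgeR adjusted p = 1 for both). Its sign rested on W72_BN607 replicate 1, because without that library the values were -0.51 on 3A and -0.68 on 3D. On 3D the levels were 99.8, 17.03 and 15.1 FPKM in the W72_BN607 libraries, against 22.8, 26.3 and 29.4 FPKM in the C72_BN607 libraries. The 3A copy made up 61.8 to 71.3% of the summed level of the pair in each library. Another GAMYB locus, on 1D (MSTRG.4574), ran between 2.52 and 11.1 FPKM.

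The 3 loci described as GAMYB-binding proteins, a name given from barley, were among the steadiest of the set. Coefficients of variation were 24.9% on 7A (MSTRG.32608), 12.9% on 7B (MSTRG.34113) and 11.3% on 7D (MSTRG.35936). Levels ran between 5.07 and 11.7 FPKM on 7A, between 6.73 and 10.2 FPKM on 7B and between 7.91 and 12.01 FPKM on 7D. The other 6 GAMYB loci, on 6A, 7A, 7B and 7D, and the 3 gibberellin-responsive GRAS loci of group 5 were not tested.

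Since the libraries of a group differed in the level of dividing-cell loci, each of 35 named gibberellin loci was set against that level across the 18 libraries (log2 scale, permutation tests with 100000 resamples, adjusted over 70 relations). The 18 libraries were permuted freely, not within variety or group, so the p-values do not allow for differences between varieties or treatments. By Pearson's r 6 rose and 12 fell with the dividing-cell level, and 17 did not pass. By Spearman's rho the calls were the same but for KO on 7A (MSTRG.32682), which passed by r alone. Among all tested loci, 54.1% had a correlation of at least the smallest size called here, 0.57, so a call by itself did not set a gibberellin locus apart. GAMYB on 3D had Pearson r = -0.88 (permutation p = 1.0e-05, the smallest these resamples can give, adjusted p = 3.5e-04) and Spearman rho = -0.85 (permutation p = 3.0e-05, adjusted p = 0.00105). GAMYB on 3A had r = -0.86 (permutation p = 1.0e-05, adjusted p = 3.5e-04) and rho = -0.81 (adjusted p = 0.0014), and GAMYB on 1D r = -0.84 (permutation p = 3.0e-05, adjusted p = 7.0e-04) and rho = -0.86 (adjusted p = 7.0e-04). An r as low or lower was found in 0.399% of all tested loci for 3D, 0.642% for 3A and 1.02% for 1D.

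The relation of GAMYB had the same sign within each variety. For the 3D locus r was -0.74 in BN607, -0.96 in BN207 and -0.89 in ZM22 (6 libraries each), for the 3A locus -0.79, -0.95 and -0.84, and for the 1D locus -0.96, -0.91 and -0.62. The BN207 values include the library that went against its label, without which 5 libraries are too few for a correlation. Without the 2 libraries farthest from the median r was -0.86 on 3D, -0.85 on 3A and -0.91 on 1D, and without the library labelled W72_BN207 replicate 1 it was -0.89, -0.88 and -0.84. W72_BN607 replicate 1, the library with 248 FPKM of GAMYB on 3A, had a dividing-cell level of 2.19, and the other 5 BN607 libraries had 3.46 to 5.27.

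GA3 oxidase 2 on 3D went the other way (r = 0.62, permutation p = 0.00304, adjusted p = 0.0164; rho = 0.61, adjusted p = 0.0297), with r = 0.64 in BN607, 0.59 in BN207, 0.55 in ZM22 and 0.65 without the 2 farthest libraries, but 38.3% of all tested loci had an r at least as high. The gibberellin stimulated transcript on 4B (MSTRG.18698), at most 3.58 FPKM, also rose with the dividing-cell level (r = 0.84, permutation p = 4.0e-05, adjusted p = 7.0e-04; rho = 0.82, adjusted p = 0.0014), as did 15.1% of all tested loci to that degree. Its r was 0.81 in BN607, 0.75 in BN207, 0.96 in ZM22 and 0.79 without the 2 farthest libraries.

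**Figure D4:**
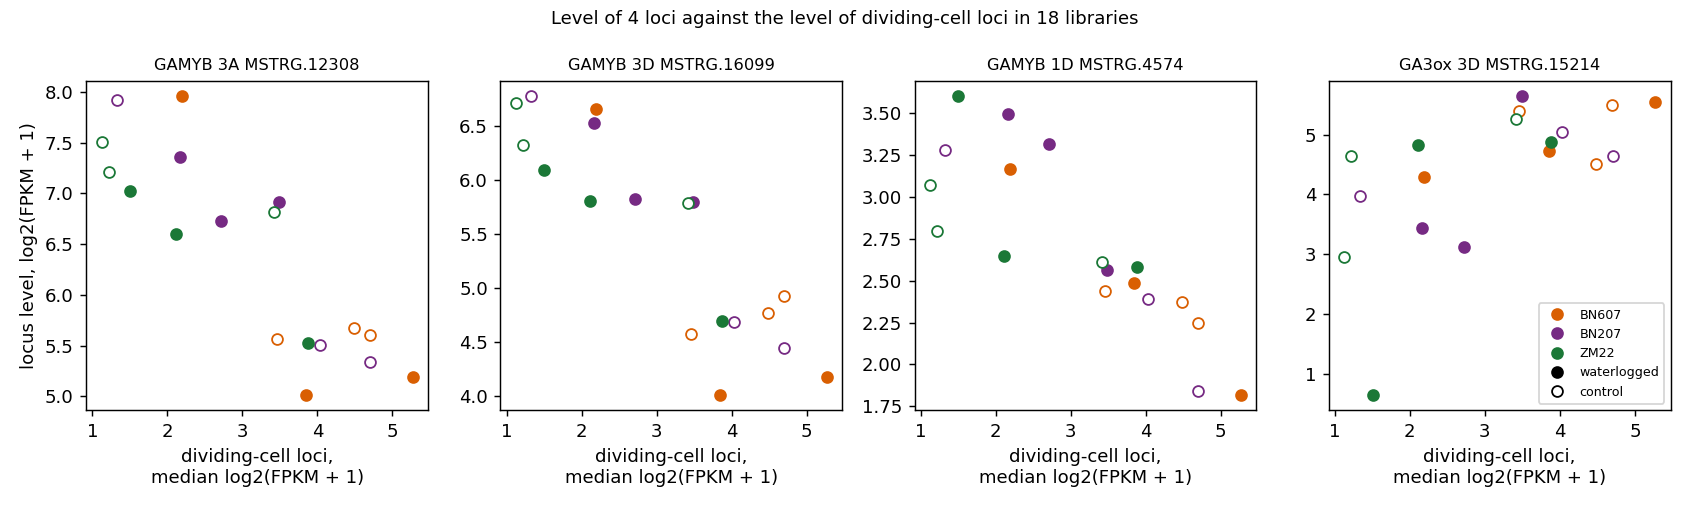
Level of GAMYB on 3A, 3D and 1D and of GA3 oxidase 2 on 3D (log2(FPKM + 1), vertical axes) against the median log2(FPKM + 1) of dividing-cell loci (horizontal axes) in 18 libraries, coloured by variety, filled where waterlogged. The GAMYB loci declined as the dividing-cell level rose (r = -0.86, -0.88 and -0.84), and filled and open points of each variety were mixed along it.

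Outputs of gibberellin and partners of the pathway were counted in the same tests. In each of the 3 varieties, waterlogging called 0 of 33 alpha-amylase loci, 0 of 9 aleurone cysteine proteases, 0 of 8 abscisic acid signalling loci, 0 of 5 GID2 and SPINDLY loci, which act on DELLA, and 0 of 1 geranylgeranyl diphosphate synthase (edgeR, with 0 loci of these lists also at an unadjusted p below 0.05). The median log2 fold change of alpha-amylases was 1.11 in BN607, 0.02 in BN207 and 0.21 in ZM22, beside 0.10, -0.05 and -0.02 for all tested loci. Without the library labelled W72_BN207 replicate 1 the BN207 medians were 0.37 for alpha-amylases, 0.47 for cysteine proteases, -0.08 for abscisic acid signalling loci, -0.16 for GID2 and SPINDLY loci and -0.03 for the geranylgeranyl diphosphate synthase. The cysteine proteases had medians of 0.86, 0.30 and 0.10 in BN607, BN207 and ZM22. The abscisic acid signalling loci had medians of 0.75, -0.03 and -0.13, the GID2 and SPINDLY loci 0.08, -0.10 and -0.31, and the geranylgeranyl diphosphate synthase, which makes the precursor, 0.33, 0.20 and 0.21 in BN607, BN207 and ZM22.

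The named loci were also set against the median log2(FPKM + 1) of the 33 alpha-amylase loci, a relation tested with the same free permutations and added after the values were seen. By Pearson's r 2 gibberellin loci rose, 6 fell and 27 did not pass, of which 3 passed by Spearman's rho alone, where 37.1% of all tested loci reached the smallest size called, 0.53. GAMYB on 1D rose with it (r = 0.69, permutation p = 0.00155, adjusted p = 0.0111; rho = 0.74, adjusted p = 0.00875), with r = 0.72 in BN607, 0.66 in BN207, 0.52 in ZM22 and 0.62 without the 2 farthest libraries. GAMYB on 3D rose as well (r = 0.59, permutation p = 0.0104, adjusted p = 0.033; rho = 0.68, adjusted p = 0.0153), with r = 0.57 in BN607, 0.50 in BN207, 0.26 in ZM22 and 0.45 without the 2 farthest libraries. GAMYB on 3A passed by rho (rho = 0.55, permutation p = 0.0192, adjusted p = 0.0479) and not by r (r = 0.53, permutation p = 0.0248, adjusted p = 0.0621). The others that passed by rho alone were CPS on 2A (MSTRG.5099, rho = 0.58, adjusted p = 0.041) and GID1 on 1D (MSTRG.4355, rho = -0.55, adjusted p = 0.0479). Those that fell by r were CPS on 7A (TraesCS7A02G552600, r = -0.69), KAO on 7D (r = -0.62) and GID1 on 1A (r = -0.56). Also falling were GA3 oxidase 2 on 3D (r = -0.59) and 3A (r = -0.53), and the gibberellin stimulated transcript on 4B (r = -0.56). For CPS on 7A (permutation p = 0.00158, adjusted p = 0.0111) r was -0.06 in BN607, -0.93 in BN207, -0.91 in ZM22 and -0.85 without the 2 farthest libraries. An r as low was found in 6.12% of all tested loci. The alpha-amylase and dividing-cell levels partly ran against each other. W72_BN607 replicate 2 had 3.17 and 5.27, and C72_ZM22 replicate 1 had 9.64 and 1.13, though C72_BN207 replicate 2 had 8.88 and 4.03. Whether the relations to alpha-amylase were separate from those to the dividing-cell level was not tested.

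Between varieties, the loci called in edgeR were KO on 7D, KAO on 5D and CPS on 2A and 2B. Averaged over the treatments, 4 of 47 gibberellin loci were lower and 0 higher in BN607 than in ZM22 (edgeR adjusted p below 0.05), while 10.6% of all tested loci were called in that comparison, 6.8% lower. In BN207 against ZM22 1 was lower, beside 4.63% of all loci called and 2.21% called lower. In BN607 against BN207 0 were called by edgeR, beside 1.52% of all loci, with 6 at an unadjusted p below 0.05 (9.53% of all loci), 1 called by DESeq2 (KAO on 5D, against 4.69% of all loci) and 0 by limma (2.69%). Without the library labelled W72_BN207 replicate 1 edgeR also called 0, against 4.11% of all loci. The shares of gibberellin loci called in edgeR were thus near those of all loci. DESeq2 called 3 gibberellin loci in BN607 against ZM22, against 20.1% of all loci, and 3 in BN207 against ZM22, against 10.4%. Limma called 2 and 1 in these comparisons, against 11.8% and 6.02% of all loci. KAO on 5D and CPS on 2A and 2B had no BN607 library at 1 FPKM and passed the filter on low values through ZM22, or ZM22 and BN207, so their calls are not independent of the filter. GAMYB on 3A and 3D was called lower in BN607 than in ZM22 in a single fit, that without W72_BN607 replicate 1 (edgeR adjusted p = 0.0455 and 0.0357). Among the alpha-amylases, 4 of 33 were lower in BN607 than in ZM22 (median log2 difference -0.75) and 1 lower in BN607 than in BN207 (median -1.69). Loci of dividing cells differed too, as 18 of 308 were higher and 3 lower in BN607 than in ZM22 (median 1.76), and the part of cell make-up in the variety differences was not tested.

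KO, a cytochrome P450 that oxidises ent-kaurene, was the tested locus called lower than in ZM22 in both Bainong varieties. On 7D (MSTRG.36030, 463698536 to 463704290) it had 3.11, 3.12 and 4.30 FPKM in the W72_BN607 libraries, against 6.88, 8.73 and 5.72 FPKM in the W72_ZM22 libraries. It had 4.97, 2.41 and 5.67 FPKM in the C72_BN607 libraries, against 6.57, 10.8 and 5.17 FPKM in the C72_ZM22 libraries. In BN207 it had 4.90, 2.81 and 1.84 FPKM under waterlogging and 3.40, 3.67 and 3.09 FPKM under control. The BN207 libraries all lay below the ZM22 libraries, and of the BN607 libraries only C72_BN607 replicate 3 exceeded the lowest ZM22 library.

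The log2 difference of KO on 7D was -1.11 ± 0.29 in BN607 against ZM22 (SE, n = 6 each; edgeR adjusted p = 0.0252) and -1.17 ± 0.29 in BN207 against ZM22 (edgeR adjusted p = 0.0323). The BN607 call was lost without C72_ZM22 replicate 2, C72_BN607 replicate 2, W72_ZM22 replicate 1, W72_BN607 replicate 2 or W72_BN607 replicate 3, where the difference was -0.90 to -1.12. The BN207 call was lost in a fit of the BN207 and ZM22 libraries alone and without C72_ZM22 replicate 1 or 2, C72_BN207 replicate 2 or 3, W72_ZM22 replicate 1 or 2, or W72_BN207 replicate 2 or 3, where the difference was -0.95 to -1.19. Without the library labelled W72_BN207 replicate 1 the difference was -1.35 (edgeR adjusted p = 0.0173). The 7A copy (MSTRG.32682) and 7B copy (MSTRG.34222) of KO were not called in any comparison.

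KAO, the P450 that completes the first gibberellin, differed at 2 loci of group 5. KAO on 5D (MSTRG.25306, 3764987 to 3767616) had 0.0461, 0.179 and 0.0201 FPKM in the W72_BN607 libraries, against 1.44, 0.298 and 1.05 FPKM in the W72_ZM22 libraries. It had 0.392, 0.248 and 0.308 FPKM in the C72_BN607 libraries, against 1.43, 0.750 and 1.54 FPKM in the C72_ZM22 libraries. BN607 was below ZM22 within each treatment, except that C72_BN607 replicates 1 and 3 exceeded the lowest ZM22 library, which was waterlogged. The log2 difference was -2.96 ± 0.77 (SE, n = 6 each; edgeR adjusted p = 0.0259), and the call was lost without C72_ZM22 replicate 1, W72_ZM22 replicate 1, any C72_BN607 replicate or W72_BN607 replicate 3, where it was -2.68 to -3.10. Under waterlogging in BN607 the log2 fold change of this locus was -1.74 ± 1.06 (SE, n = 3 each; edgeR adjusted p = 1).

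KAO on 5B (TraesCS5B02G038900, 43925272 to 43927222), a locus below the filter and singled out after its values were seen, was present in ZM22 and at 0 in the other varieties. It had 0.642, 0.264 and 0.186 FPKM in the W72_ZM22 libraries and 0.651, 0.362 and 0.193 FPKM in the C72_ZM22 libraries, which is 26 to 96 counts per library. All 6 BN607 libraries and all 6 BN207 libraries were listed at 0 counts. With 3 counts in each library taken as the floor, the locus was at least 19.1-fold lower in BN607 and at least 20.3-fold lower in BN207 than in ZM22. In edgeR without the filter on low values it was called in both comparisons (adjusted p = 0.00554 for BN607 and 0.00876 for BN207).

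The remaining called loci were 2 CPS genes, which start the pathway or related diterpene routes. CPS on 2A (MSTRG.5099, 12426515 to 12434635) had 0, 0.0137 and 0 FPKM in the W72_BN607 libraries, against 3.78, 0.0136 and 0.552 FPKM in the W72_ZM22 libraries. It was at 0 in the 3 C72_BN607 libraries, against 6.78, 1.04 and 0 FPKM in the C72_ZM22 libraries. The 6 BN607 libraries held 4 counts in total, against 2989 in the 6 ZM22 libraries (edgeR adjusted p = 0.0176). The call was lost in limma with either pseudocount and without C72_BN607 replicate 1 or 2 or W72_BN607 replicate 2 or 3.

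CPS on 2B (MSTRG.8566, 638629387 to 638634352) had 15 counts in the 6 BN607 libraries, all in C72_BN607 replicate 3, against 6483 counts in the 6 ZM22 libraries (edgeR adjusted p = 0.0402). Of the ZM22 signal, 19.8 FPKM was in C72_ZM22 replicate 1, and the other 5 ZM22 libraries had 0 to 2.70 FPKM. The call was lost in 12 of the 18 fits that left out a library, C72_ZM22 replicate 1 among them, as well as in limma with either pseudocount and in a fit of the compared groups alone, and DESeq2 gave no adjusted p for this locus. In edgeR neither CPS locus was called in BN207 against ZM22, and DESeq2 called that on 2A; in BN207 they had 97 counts on 2A and 969 on 2B in 6 libraries.

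These loci lay in 3 groups of neighbouring terpene synthase genes, which were examined after their values were seen. The groups held 4 CPS or KS loci on 2A (12426515 to 12965216), 3 on 2D (12125609 to 12388648) and 6 on 2B (637930326 to 638958923). Of these 13 loci, 7 reached 1 FPKM in a library, and 6 of the 7 were highest in C72_ZM22 replicate 1. That library held 77.1% of the summed FPKM of CPS MSTRG.5102 (11.03 FPKM), 75.0% of that of MSTRG.8566 and 83.7% of that of the KS-like locus MSTRG.8564 (4.65 FPKM). The exception was KS TraesCS2B02G445700, which was highest in C72_BN607 replicate 1 at 1.98 FPKM. C72_ZM22 replicate 1 was also the library with 500 FPKM of gliadin and glutenin transcripts, and the part of that tissue in the terpene synthase levels was not tested.

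In BN607 all 6 libraries were listed at 0 for MSTRG.5102 and MSTRG.8564. With the same floor of 3 counts, MSTRG.5102 was at least 185-fold lower than the ZM22 mean and MSTRG.8564 at least 80.6-fold lower. Both bounds rested on C72_ZM22 replicate 1, with 2875 and 1285 counts. The other ZM22 libraries held 0 to 349 counts of MSTRG.5102 and 0 to 118 of MSTRG.8564. Only 4 of the 6 ZM22 libraries were above 0 for MSTRG.5102, and 5 for MSTRG.8564, so these are not bounds for each ZM22 library. MSTRG.5102 was not called in BN607 against ZM22 (edgeR adjusted p = 0.0602), except without C72_ZM22 replicate 3 or W72_BN207 replicate 3. MSTRG.8564 was below the filter, and was called in that comparison without the filter (edgeR adjusted p = 0.0275) and with filterByExpr (edgeR adjusted p = 0.0287).

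The other 6 tested CPS loci were at low levels, between 0.0610 and 4.12 FPKM. CPS on 7B (TraesCS7B02G476400) had 4.12, 3.80 and 3.35 FPKM in the W72_BN607 libraries, against 0.707, 2.12 and 3.06 FPKM in the W72_ZM22 libraries. It had 3.80, 2.67 and 2.23 FPKM in the C72_BN607 libraries, against 1.73, 1.23 and 2.32 FPKM in the C72_ZM22 libraries. The libraries of both varieties overlapped under control and were apart under waterlogging, and the log2 difference was 0.69 ± 0.32 (SE, n = 6 each; edgeR adjusted p = 0.173). CPS on an unplaced scaffold (TraesCSU02G099900) ran between 1.29 and 2.68 FPKM, and KS on 2D (TraesCS2D02G423300), outside the 2D group, between 1.09 and 4.44 FPKM. CPS on 7A (TraesCS7A02G552600) had a log2 fold change under waterlogging in ZM22 of -0.61 ± 0.30 (SE, n = 3 each; edgeR adjusted p = 1).

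**Figure D5:**
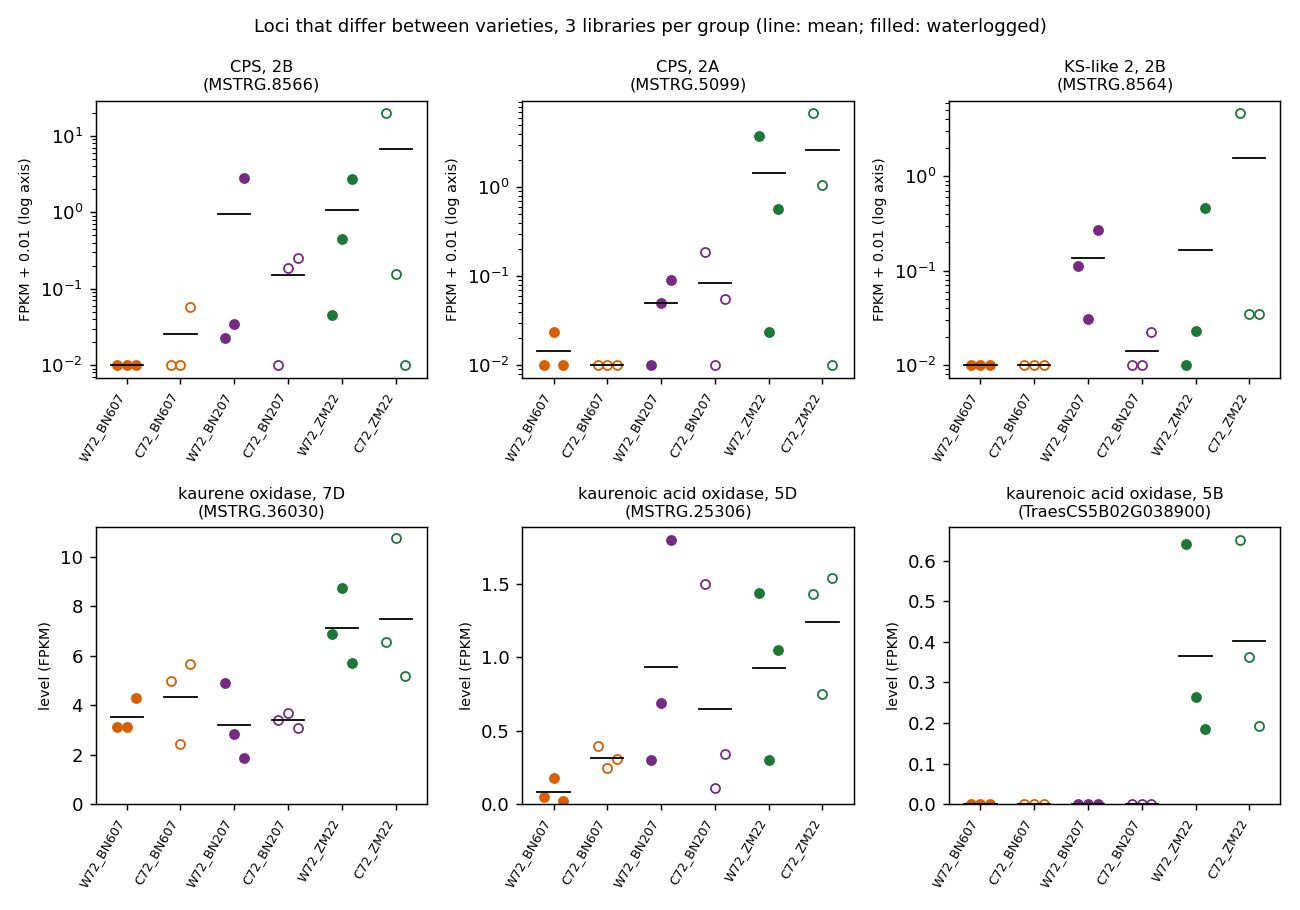
Level of 6 early-pathway loci in each library by group, with filled points for waterlogged libraries, open points for controls and lines for the mean of 3; the upper panels show FPKM + 0.01 on a log axis and the lower panels FPKM from 0. KO on 7D and KAO on 5D were lower in BN607 than in ZM22, KAO on 5B was present in the 6 ZM22 libraries alone, and the terpene synthases of 2A and 2B peaked in C72_ZM22 replicate 1.

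The GID1 receptors were not called between BN207 and ZM22 in edgeR with all libraries, and the 1B copy was called without C72_BN207 replicate 1 (log2 difference -0.80, edgeR adjusted p = 0.0251). GID1 on 1A (MSTRG.985) had 4.41, 3.07 and 1.45 FPKM in the W72_BN207 libraries, against 2.70, 6.001 and 4.01 FPKM in the W72_ZM22 libraries. It had 2.56, 3.38 and 3.11 FPKM in the C72_BN207 libraries, against 3.92, 6.08 and 5.93 FPKM in the C72_ZM22 libraries. The control libraries of both varieties were apart and waterlogged libraries overlapped, and the log2 difference was -0.65 ± 0.23 (SE, n = 6 each; edgeR adjusted p = 0.138). DESeq2 called the locus, and without the library labelled W72_BN207 replicate 1 the difference was -0.81 (edgeR adjusted p = 0.0593). On 1B and 1D the differences were -0.56 ± 0.22 and -0.49 ± 0.21 (SE, n = 6 each; edgeR adjusted p = 0.21 and 0.24).

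Extreme values gathered in a few libraries. W72_ZM22 replicate 1, the library with the fewest counts, was the lowest for 17 of the 47 loci (36.2%), against 16.1% of all tested loci. C72_ZM22 replicate 1 was the highest for 8 of the 47 loci (17.02%), against 5.96% of all tested loci. FPKM divides by library size, and the part of depth or of tissue make-up in these counts was not tested.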

How the data were processed

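RNA-seq of 18 wheat seed libraries, 3 for each of 3 varieties under waterlogging or control treatment, was analysed. Per the study's methods, the authors used cutadapt for trimming, aligned reads to IWGSC RefSeq v1.0 and used StringTie for transcript assembly, and the submitters' processing notes name HISAT and StringTie. The authors deposited FPKM per locus, normalized by transcript length and library size, and beside it whole-number counts per locus. These deposited values are treated as estimated counts, since the sources used here do not give how they were made.

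Loci that reached 1 FPKM in 3 or more libraries were tested with edgeR 4.0.16 (R 4.3.3, quasi-likelihood test, TMM scaling) in a single fit with 1 mean for each of the 6 groups. The p-values were adjusted by Benjamini-Hochberg over 50656 loci, with a threshold of 0.05. Levels, figures and correlations used FPKM (Python 3.11.15, pandas 2.3.3, scipy 1.17.1, matplotlib 3.10.9). Scripts were tested on simulated data. Alternatives were DESeq2 1.42.0, DESeq2 size factors in edgeR, no filter on low values, filterByExpr, counts divided by 4, a fit of the compared groups alone, limma 3.58.1 on log2(FPKM + 1) or log2(FPKM + 0.1), a replicate block and leaving out each library.

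Members were taken from the deposited descriptions. Named loci were those called between groups, the 2 with the highest mean FPKM in each role, each tested DELLA, GID1 and GAMYB locus, and the 3 with the lowest p for waterlogging in each variety; others are marked as chosen after their values were seen. The members and the lists of marker, alpha-amylase, protease, abscisic acid and partner loci were chosen with earlier results of these data known, and 4 isopropylmalate synthases matched by letters alone were left out of the abscisic acid list. No sequences are shown.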

Additional observations from a re-analysis of the deposited data

How the results depend on the processing

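The number of gibberellin loci called depended on the tool and on single libraries. For waterlogging in BN207, DESeq2 called 1 locus (the DELLA locus on 4B) and edgeR 0. For BN607 against ZM22, where edgeR called 4, limma called 2 with a pseudocount of 1 and 2 with a pseudocount of 0.1, edgeR without the filter and with filterByExpr 6 each (KAO on 5B and the KS-like MSTRG.8564 added), and leaving out each library gave 0 to 5. For BN207 against ZM22, where edgeR called 1, DESeq2 called 3, edgeR without the filter 2, with filterByExpr 2 and on the compared groups alone 0, and leaving out each library gave 0 to 2. For BN607 against BN207, DESeq2 called 1 and edgeR 0. The other counts were 0 in each fit that left out a library. GAMYB on 3A and 3D changed sign in BN607 without W72_BN607 replicate 1, and leaving out each library gave -0.51 to 2.15 on 3A (MSTRG.12308) and -0.68 to 1.74 on 3D (MSTRG.16099). The causes were not tested. Of the log2 fold changes of named loci under the alternatives, 333 kept direction and side of the threshold, 41 lost the call, 1 gained it and 2 changed sign.

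Same-numbered waterlogged and control libraries did not deviate together throughout, since their correlations ran between -0.51 and 0.58 and 3 of 9 were above 0.1. For replicates 1, 2 and 3 they were 0.58, -0.18 and 0.40 in ZM22, -0.46, -0.26 and -0.51 in BN207 and 0.14, 0.10 and -0.12 in BN607. The numbers were therefore not taken to pair the libraries, although ZM22 replicates 1 and 3 did deviate together. With the replicate number as a block, 4 loci were called for BN607 against ZM22, 1 for BN207 against ZM22 and 0 in the other comparisons, as without it. The estimated biological coefficient of variation was 0.676, which limits what 3 libraries a group can show.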
